A study of Homo sapiens with 21 samples.

Results

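The transcripts of 10 genes listed as inhibitors acting at the epidermal growth factor receptor (EGFR) were followed through an EGF response: ERRFI1, LRIG1, LRIG3, SOCS2, SOCS3, SOCS4, SOCS5, CBL, CBLB and PTPRE. Action of their products on EGFR was not measured. The genes were chosen by name, with earlier results of these data known. A probeset (the group of short array probes that reads 1 stretch of sequence) was counted for a gene when the platform annotation named that gene alone. This gave 216 of the 354600 single-gene probesets on the array, of which 193 of 261183 passed a filter on dim values, and 10 of the 16614 genes that were tested. The cells were MCF10A, an immortalised, non-tumorigenic line of human mammary epithelium. At low passage they spent 24 h in medium lacking EGF and then 24 h of starvation in DMEM/F12 that held 1% horse serum; every array therefore came from starved cells. The first group was harvested without EGF (0 min), and the other 6 groups received EGF at 20 ng/ml for 20, 40, 60, 120, 240 or 480 min. Each time had 3 arrays, A, B and C, which the labels describe as biological triplicates, on Affymetrix exon arrays after depletion of ribosomal RNA. No later array lacked EGF, so an effect of EGF cannot be told apart from one of handling or of time in culture, and in bulk RNA fewer cells with a transcript cannot be told apart from less transcript per cell.

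EGF binding makes EGFR dimerise and phosphorylate its own tail, and inhibitors can act at different points of that event. ERRFI1 (MIG6) binds the kinase domain of the activated receptor and blocks it. LRIG1 is a transmembrane protein with leucine-rich repeats that binds ERBB receptors and lowers their amount, and LRIG3 is its relative. SOCS proteins carry an SH2 domain and a SOCS box that recruits a ubiquitin ligase; SOCS2 and SOCS3 are best known as feedback inhibitors of cytokine receptors and JAK kinases, and SOCS4 and SOCS5 have been tied to turnover of EGFR. CBL and CBLB are ubiquitin ligases that dock on phosphorylated EGFR and send it to the lysosome. PTPRE is a receptor-type tyrosine phosphatase.

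The arrays were of even brightness, with median intensities from 20.4 to 20.6 units, and arrays of 1 time correlated at r = 0.944 to 0.988 across genes. The array at 20 min labelled C stood apart from the other two at that time for several of these genes, and results that rest on it are given with and without it. The basal markers of MCF10A were bright at 0 min, with KRT5 at 12.47, KRT14 at 11.37 and KRT17 at 11.33 on the log2(intensity + 16) scale used throughout, against a filter at 5.18. Markers of leukocytes and endothelium were mostly dim, PTPRC for example passing with 7 of its 47 probesets, and 0 of their 6 tested genes was called by limma at any time, nor was any at an unadjusted p under 0.05. Summed over the list, those 6 genes lay between 296 and 353 intensity units on the arrays at 0 min and between 275 and 386 afterwards. Of 9 tested basal markers 2 were higher and 0 lower at 480 min in limma (0 lower at an unadjusted p under 0.05). Of 9 luminal markers 2 were higher and 1 lower. Of 7 fibroblast markers at 480 min, 0 was higher by either measure and 1 (COL1A1) was lower in limma. DCN was also lower at an unadjusted p under 0.05. Of all genes, 15.5% were called higher and 7.11% lower at 480 min. Summed intensities ranged from 15909 to 18046 units at 0 min and from 16540 to 20411 afterwards for the basal list, from 2018 to 2170 and from 1996 to 2641 for the luminal list, and from 586 to 662 and from 479 to 644 for the fibroblast list. The fibroblast sums lay below all those at 0 min at 120 min (508 to 569), 240 min (479 to 509) and 480 min (493 to 515). The part of these lists in the results was not tested. The difference of the median log2 value between named and unnamed probesets, an index of how far gene signal stands above the rest of the array, was 1.24 ± 0.02 (SD, n = 3) at 0 min and had means of 1.27 to 1.32 at the EGF times; calls that end with this index as a covariate are named below.

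Start-site regions of 7 of the 10 genes were matched by symbol in the RefSeq promoter table (build GRCh38.p14), with 19 start sites among them. Each region held 250 bases before and 50 after a start site. The sequences below, the 250 bases upstream read 5′ to 3′ along the gene, are shown for the gene that rose first (ERRFI1), for the pair that rose together over hours (SOCS4 and PTPRE) and for the gene that fell furthest (CBLB). Capitals mark GCGNGGGCG, the site bound by EGR factors, on either strand. They lie at chr1:8026310-8026559 on the minus strand for ERRFI1, chr14:55026986-55027235 on the plus strand for SOCS4, chr10:127906853-127907102 on the plus strand for the first of 4 start sites of PTPRE, and chr3:105869013-105869262 on the minus strand for the second of 5 start sites of CBLB.
ERRFI1: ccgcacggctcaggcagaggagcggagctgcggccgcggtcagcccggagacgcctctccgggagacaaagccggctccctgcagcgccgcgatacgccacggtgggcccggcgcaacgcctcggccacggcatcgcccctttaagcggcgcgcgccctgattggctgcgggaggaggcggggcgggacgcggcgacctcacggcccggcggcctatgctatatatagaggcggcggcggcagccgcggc
SOCS4: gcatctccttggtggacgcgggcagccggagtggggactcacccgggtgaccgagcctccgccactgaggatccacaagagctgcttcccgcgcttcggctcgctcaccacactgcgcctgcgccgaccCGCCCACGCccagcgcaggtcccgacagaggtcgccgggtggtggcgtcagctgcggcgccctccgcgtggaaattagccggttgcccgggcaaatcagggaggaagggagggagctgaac
PTPRE: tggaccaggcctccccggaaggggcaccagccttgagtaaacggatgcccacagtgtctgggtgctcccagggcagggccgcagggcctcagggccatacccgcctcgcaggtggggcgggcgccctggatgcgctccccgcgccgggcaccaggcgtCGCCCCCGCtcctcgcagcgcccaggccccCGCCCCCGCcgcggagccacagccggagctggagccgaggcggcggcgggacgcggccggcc
CBLB: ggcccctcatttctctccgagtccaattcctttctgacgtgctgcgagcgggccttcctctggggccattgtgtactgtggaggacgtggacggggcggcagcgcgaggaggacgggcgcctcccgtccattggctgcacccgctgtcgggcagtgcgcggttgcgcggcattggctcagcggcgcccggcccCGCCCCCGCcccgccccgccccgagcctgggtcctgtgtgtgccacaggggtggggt
GCGNGGGCG occurred once upstream of SOCS4, at 2 places upstream of PTPRE and once upstream of CBLB, all on the opposite strand (printed here as CGCCCACGC or CGCCCCCGC), and in 3 of the 19 windows of these genes against 9.43% of the 35116 windows in the table. Genes that rose and a gene that fell both held it. The start sites shown for PTPRE and CBLB were the only ones of these genes that held it, so the printed sequences hold it more often than the windows as a whole. TGACTCA, the AP-1 site, was found in 1 window, at 2 places before the fourth start site of LRIG1, against 4.95% of all windows. The CArG box of serum response factor (CC, 6 bases of A or T, GG), the cyclic AMP response element TGACGTCA, and TTCNNNGAA, bound by STAT factors, were searched on both strands as well and were in 0 of the 19 windows, against 1.29%, 1.85% and 7.66% of all windows. A match describes letters and not a bound site.

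ERRFI1 was higher within 20 min of EGF, PTPRE, SOCS4 and SOCS3 were higher by 60 min, and SOCS2 and CBL by 120 min. CBLB and LRIG3 were lower at 120 min, and LRIG1 by a small margin at 240 min. Over all 7 times, 9 of the 10 genes passed limma's moderated F-test with Benjamini-Hochberg adjustment over all genes (adjusted p from 3.88e-10 for ERRFI1 to 0.00771 for SOCS4), against 27.5% of all genes. SOCS5 did not pass (adjusted p = 0.433), though it did without array C at 20 min (0.0484) and with brighter probesets alone, the 75th percentile as the filter (0.0305). At the level of single probesets, 113 of the 193 passed the same test, against 20.1% of all probesets tested. The pass counts were uneven: 27 of 28 for CBLB, 10 of 11 for ERRFI1, 24 of 27 for LRIG3 and 19 of 30 for PTPRE. They were 7 of 13 for SOCS2, 4 of 8 for SOCS3, 4 of 9 for SOCS4 and 11 of 29 for CBL. LRIG1 had 6 of 27 and SOCS5 1 of 11. Probesets of 1 gene read the same transcripts and are not replicates. Because the members were chosen with earlier results of these data known, the shares here and below are no test of the set.

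A gene's value is the median of log2(intensity + 16) over its kept probesets, and a change is a difference of means on that scale, which understates changes of dim probesets. A gene is called at an adjusted p under 0.05 (limma, 2-sided, adjusted over all genes tested). At 20 min 1 member was higher (0.897% of all genes) and 0 lower (0.0843%), and at 40 min again 1 higher (1.82%) and 0 lower (0.415%). At 60 min 4 were higher (4.82%) and 0 lower (0.975%). At 120 min 5 were higher (11.2%) and 2 lower (3.21%), at 240 min 5 higher (13.5%) and 3 lower (6.21%), and at 480 min 5 higher (15.5%) and 1 lower (7.11%). Where 0 members were called lower by limma, 1 (SOCS2) had an unadjusted p under 0.05 at 20 min, 0 at 40 min and 1 (LRIG3) at 60 min. The median change over the 10 members was 0.25, 0.17, 0.19, 0.29, 0.30 and 0.39 at the 6 times in order, beside 0.02, 0.02, 0.03, 0.04, 0.02 and 0.05 over all genes.

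**Figure D1:**
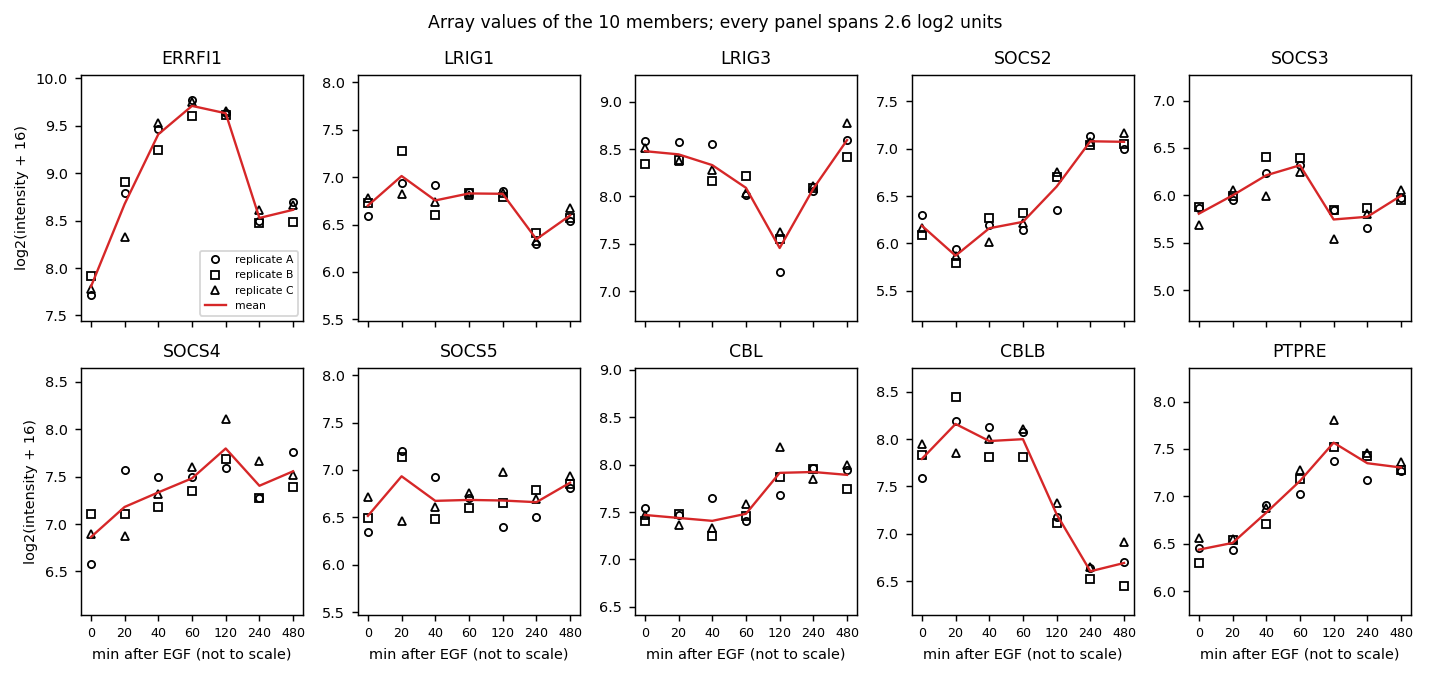
Each panel plots 1 gene: the value on each array as log2(intensity + 16) against minutes after EGF (times evenly spaced, not to scale), with circles, squares and triangles for replicates A, B and C and a red line through the means of 3 arrays. ERRFI1 rises from 7.80 to 9.71 at 60 min, CBLB falls from 7.79 to 6.61 at 240 min, and LRIG3 dips to 7.46 at 120 min and is back at 8.60 by 480 min.

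**Figure D2:**
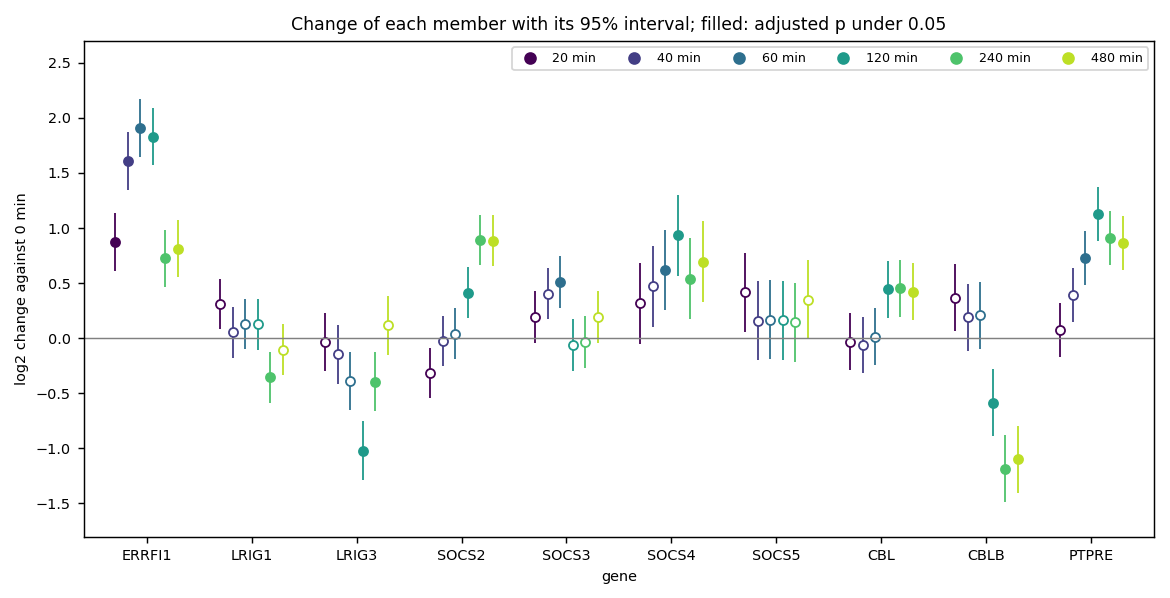
Points show the log2 change of each gene against 0 min at 20 to 480 min (colours), bars its 95% interval, and filled points an adjusted p under 0.05 in limma. ERRFI1 is filled at all 6 times, PTPRE and SOCS4 from 60 min on, SOCS2 and CBL from 120 min on, and CBLB lies below 0 from 120 min on.

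ERRFI1, the kinase-domain inhibitor, had the largest and earliest rise of the 10. Its values were 7.71, 7.91 and 7.78 on arrays A, B and C at 0 min, 8.80, 8.90 and 8.32 at 20 min, 9.46, 9.25 and 9.53 at 40 min and 9.77, 9.61 and 9.75 at 60 min. It stayed at 9.63, 9.61 and 9.65 at 120 min, and came down to 8.50, 8.48 and 8.61 at 240 min and 8.70, 8.49 and 8.66 at 480 min. Every array after EGF lay above every array at 0 min. The change was 0.87 at 20 min (SE 0.13, adjusted p = 0.000229) and reached 1.91 at 60 min, or 3.75-fold on this scale (adjusted p = 4.65e-10). Its size at 60 min ranked 87th among the largest changes of the 16614 genes. The rise from 20 to 40 min was itself called (0.74, adjusted p = 0.00338), where 0.572% of all genes were. From 120 to 240 min the transcript fell by 1.1 (adjusted p = 2.01e-05), while 1.54% of all genes were called in either direction over that interval. It then stood 0.73 above the start at 240 min and 0.81 at 480 min (adjusted p = 5.23e-05), with a difference between these of 0.09 that did not pass. All 11 of its probesets were higher at 60 min, from 0.57 to 2.79, and 10 passed the F-test. Without array C at 20 min, the lowest of the 3, the 20 min change was 1.05.

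LRIG3 dipped and returned, while LRIG1 moved little. LRIG3, a leucine-rich repeat transmembrane protein, had values of 8.58, 8.34 and 8.51 at 0 min, 8.01, 8.22 and 8.04 at 60 min and 7.20, 7.55 and 7.62 at 120 min. It then read 8.06, 8.09 and 8.11 at 240 min and 8.59, 8.42 and 8.77 at 480 min. The 3 arrays at 120 min were the lowest of the 21, and the arrays at 480 min overlapped those at 0 min. The change was -1.02 at 120 min (SE 0.13, 0.493-fold, adjusted p = 6.38e-06), and all 27 probesets were lower, from -1.42 to -0.28. The step down was called between 60 and 120 min (-0.63, adjusted p = 0.00444, where 3.49% of all genes were called), and the return took place between 120 and 240 min (0.63, adjusted p = 0.0096) and between 240 and 480 min (0.51, adjusted p = 0.0449, where 1.47% were). The return to 240 min was no longer called without array A at 120 min (adjusted p = 0.0594). The call from 240 to 480 min, and the one at 240 min against 0 min (-0.39, adjusted p = 0.0325), were lost in 12 and 5 of the 21 refits that left out 1 array, the latter 5 without array A or C at 0 min or any array at 240 min, and both also with the filter at the 75th percentile.

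LRIG1, the better known EGFR antagonist of the family, had values of 6.59, 6.73 and 6.78 at 0 min and 6.29, 6.41 and 6.33 at 240 min, and all 21 arrays lay between 6.29 and 7.27. The arrays at 240 min were the lowest of all, and the change there was -0.35 (SE 0.11, adjusted p = 0.0267). That call was lost without array B or C at 0 min or array A or C at 240 min (adjusted p up to 0.0926), and with no filter on dim probesets. At 20 min LRIG1 was at 6.94, 7.27 and 6.82, a change of 0.31 that did not pass (adjusted p = 0.157). Without array C at 20 min it was 0.41 and passed (adjusted p = 0.0441). The difference between the changes of LRIG1 and LRIG3 was 1.15 at 120 min (95% interval 0.81 to 1.48, adjusted p = 1.08e-06 over the 48 differences tested between relatives), and it stayed called when any 1 array was left out. At 240 min the difference was 0.04 (interval -0.30 to 0.38).

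Among the 4 SOCS genes, SOCS4 and SOCS2 rose and stayed up, SOCS3 rose for a short time and SOCS5 did not pass at any time with all 21 arrays. SOCS3, an early target of STAT3 that blocks gp130 receptors and JAK kinases, had values of 5.86, 5.87 and 5.68 at 0 min, 6.23, 6.41 and 6.0 at 40 min and 6.32, 6.39 and 6.24 at 60 min. At 120 min it was back at 5.85, 5.85 and 5.54. The arrays at 60 min all lay above those at 0 min, and the arrays at 120 min overlapped them. The change at 60 min was 0.51 (SE 0.11, 1.42-fold, adjusted p = 0.00748), and that at 40 min, 0.41, did not pass (adjusted p = 0.0693). The drop from 60 to 120 min was -0.57 (adjusted p = 0.00371). The gene was dim, at 35.4 to 42.6 intensity units at 0 min, and with brighter probesets alone (the 75th percentile as the filter) the 60 min change did not pass (adjusted p = 0.0609).

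SOCS2, which is best known for damping growth hormone signalling, rose late. It read 6.31, 6.09 and 6.17 at 0 min, 5.94, 5.80 and 5.87 at 20 min and 6.14, 6.32 and 6.22 at 60 min. It was at 6.35, 6.70 and 6.75 at 120 min, 7.13, 7.04 and 7.07 at 240 min and 7.0, 7.05 and 7.17 at 480 min. The arrays at 240 and 480 min lay above all earlier ones, and the 3 at 20 min below all at 0 min, though that difference did not pass (-0.32, adjusted p = 0.153). The rise was 0.41 at 120 min (adjusted p = 0.0135), 0.89 at 240 min (1.85-fold, adjusted p = 4.04e-06) and 0.88 at 480 min (SE 0.11). The size of the later changes moved with the filter on dim probesets, from 0.47 with the 75th percentile to 1.20 with no filter at 240 min and from 0.45 to 1.34 at 480 min, and both were called in all settings. The call at 120 min was lost without array B at 0 min and without array B or C at 120 min, with the array index as a covariate, and under a stricter filter (0.09, adjusted p = 0.696).

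The 13 kept probesets of SOCS2 fell into 2 runs in the order of their numbers, which were separated after their values were seen and so carry no test. The last 6 rose by 1.02 to 1.86 at 240 min and all 6 passed the F-test. The first 7 changed by -0.16 to 0.53, and 1 of them passed. By array, the median over the last 6 went from 5.45, 5.50 and 5.79 at 0 min to 6.94, 7.21 and 7.33 at 240 min, while that over the first 7 went from 7.01, 6.66 and 6.96 to 7.13, 7.0 and 7.02. The gene value, a median over both runs, thus lies between a run that rose and one that changed by at most 0.53. PTPRE showed the same kind of split. Its first 7 probesets changed by -0.35 to 0.59 at 120 min and 0 of them passed, while the other 23 rose by 0.68 to 1.96 and 19 passed.

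**Figure D3:**
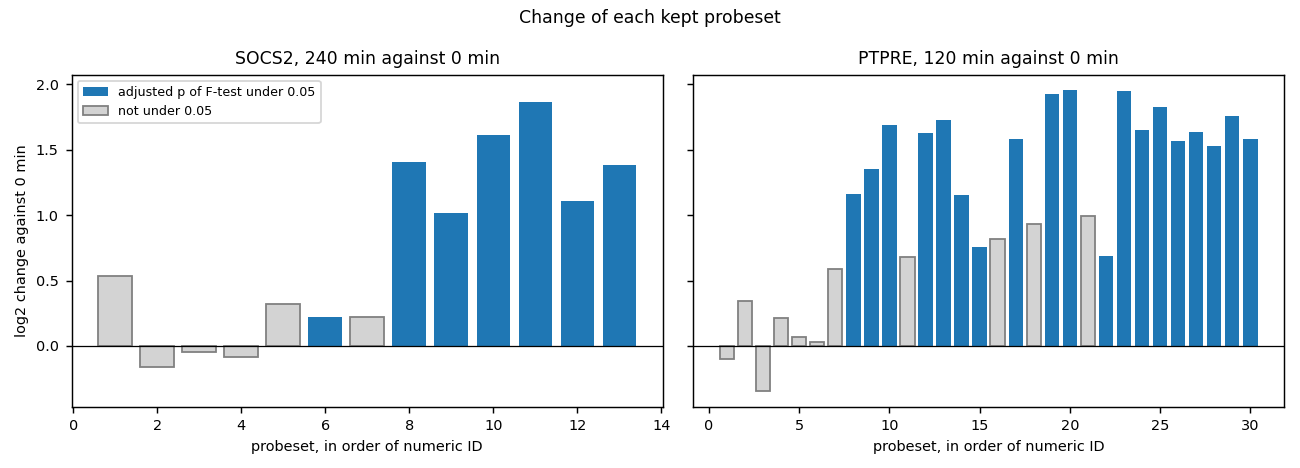
Bars show the log2 change of each kept probeset against 0 min, in order of probeset number, for SOCS2 at 240 min (left) and PTPRE at 120 min (right); blue bars passed the probeset F-test at an adjusted p under 0.05. The 7 bars at the left of each panel stay between -0.35 and 0.59, and the bars to their right lie between 0.68 and 1.96.

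SOCS4, tied to ubiquitin-dependent loss of EGFR, was higher from 60 min on. Its values were 6.58, 7.11 and 6.90 at 0 min, 7.50, 7.35 and 7.61 at 60 min and 7.60, 7.69 and 8.11 at 120 min. They were 7.27, 7.28 and 7.66 at 240 min and 7.76, 7.39 and 7.51 at 480 min. From 40 min on no array overlapped those at 0 min, although array A at 0 min lay well below the other two. The change was 0.62 at 60 min (adjusted p = 0.0392) and 0.93 at 120 min (SE 0.18, 1.91-fold, adjusted p = 0.00073). It was 0.54 at 240 min (adjusted p = 0.0334) and 0.69 at 480 min (adjusted p = 0.00625). The calls at 120 and 480 min held in every refit without 1 array, and those at 60 and 240 min were lost without array A or C at 0 min, the former also without array C at 40 min or A or C at 60 min, the latter without array C at 240 min, and both with the array index as a covariate and with the filter at the 75th percentile (adjusted p in any setting up to 0.198 at 60 min and 0.180 at 240 min). The 240 min call was also lost with no filter on dim probesets and with the mean over probesets (0.26), the setting in which the 120 and 480 min changes were 0.61 and 0.35, both still called. All 9 probesets were higher at 120 min, by 0.29 to 1.21, and 4 of them passed the F-test. The median of the probesets' own changes was 0.45, well below the 0.93 of the gene value. The gene value is a median taken on each array and can rest on different probesets at different times.

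SOCS5, the other SOCS protein tied to EGFR turnover, had values of 6.35, 6.49 and 6.71 at 0 min and 7.20, 7.14 and 6.46 at 20 min. Array C at 20 min lay within the range of 0 min and the other two above it. The change was 0.42 (95% interval 0.06 to 0.77, adjusted p = 0.197), and without array C it was 0.65 and passed (adjusted p = 0.0247). At 40 to 480 min the change lay between 0.14 and 0.35. The annotation gave SOCS5 11 kept probesets in 3 distant runs of numbers, of 6, 4 and 1. No position was used here, so whether the runs of 4 and 1 read SOCS5 was not checked. The gene value and its tests, also those against other SOCS genes, take in all 11. With the first run alone, an alternative chosen after the data were seen, the changes were 0.27, -0.21, -0.22, 0.07, 0.02 and 0.05 in order of time, and none passed.

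Tests of the SOCS genes against each other placed the differences in time. SOCS2 changed less than SOCS3 at 60 min (-0.47, adjusted p = 0.0201) and more at 240 min (0.92, adjusted p = 2.63e-05). SOCS3 and SOCS4 did not differ beyond error at 60 min (-0.11, 95% interval -0.54 to 0.33), and differed by -1.0 at 120 min (adjusted p = 0.000418). SOCS4 exceeded SOCS5 by 0.77 at 120 min (adjusted p = 0.000434), and SOCS2 and SOCS4 did not differ beyond error at 480 min (0.19, interval -0.21 to 0.59). Of the 48 differences over 8 pairs of relatives and 6 times, 25 passed, and 10 of those did so in each of the 21 refits without 1 array. The SOCS2 and SOCS3 difference at 60 min was not among the 10 (it was lost without array A or C at 0 min or array A at 60 min), and the 240 min one was. Differences between relatives were not refitted under another filter or pseudocount. The SOCS2 change at 480 min moved from 0.45 to 1.34 with the filter, so its differences from other SOCS genes hold for the reported filter alone.

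CBL and CBLB, the ubiquitin ligases that drive EGFR into lysosomes, moved in opposite directions from 120 min on. CBLB had values of 7.59, 7.83 and 7.95 at 0 min, 8.08, 7.81 and 8.11 at 60 min and 7.18, 7.11 and 7.32 at 120 min. It fell further to 6.64, 6.53 and 6.65 at 240 min and read 6.71, 6.45 and 6.92 at 480 min. No array at 120 min or later reached the lowest at 0 min. The change was -0.58 at 120 min (adjusted p = 0.00857), -1.19 at 240 min (SE 0.15, 0.44-fold, adjusted p = 3.85e-06) and -1.10 at 480 min (adjusted p = 9.47e-06). All 28 probesets were lower at 240 min, from -1.76 to -0.19, and 27 passed the F-test. The fall from 60 to 120 min was -0.79 (adjusted p = 0.00197), and the further -0.60 to 240 min (adjusted p = 0.037) was lost in 8 of the 21 refits, with a pseudocount of 64 and with the replicate letter as a block (highest adjusted p in any setting 0.176). Before the fall CBLB stood at 8.19, 8.44 and 7.85 at 20 min, a change of 0.37 that did not pass (adjusted p = 0.185). Without array C at 20 min it was 0.52 and passed (adjusted p = 0.0414).

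CBL had values of 7.54, 7.40 and 7.46 at 0 min, 7.41, 7.45 and 7.58 at 60 min and 7.68, 7.87 and 8.19 at 120 min. At 240 min it was at 7.97, 7.95 and 7.85 and at 480 min at 7.94, 7.74 and 7.99. The arrays from 120 min on lay above those at 0 min and those before overlapped them. The rise was 0.44 at 120 min (adjusted p = 0.0178), 0.45 at 240 min (SE 0.12, 1.37-fold, adjusted p = 0.012) and 0.42 at 480 min (adjusted p = 0.0163). The call at 240 min held in every refit. Those at 120 and 480 min were lost without array B at 0 min and with the array index as a covariate, the former also without array C at 120 min (adjusted p = 0.135) and the latter without array A or C at 480 min. The change of CBL exceeded that of CBLB by 1.03 at 120 min (adjusted p = 6.14e-06), 1.64 at 240 min (95% interval 1.3 to 1.97, adjusted p = 1.04e-09) and 1.52 at 480 min (adjusted p = 3.19e-09), and these 3 differences held in every refit without 1 array. At 20 min CBL changed less than CBLB (-0.40, 95% interval -0.74 to -0.06, adjusted p = 0.0441), a call lost in 13 of the 21 refits.

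**Figure D4:**
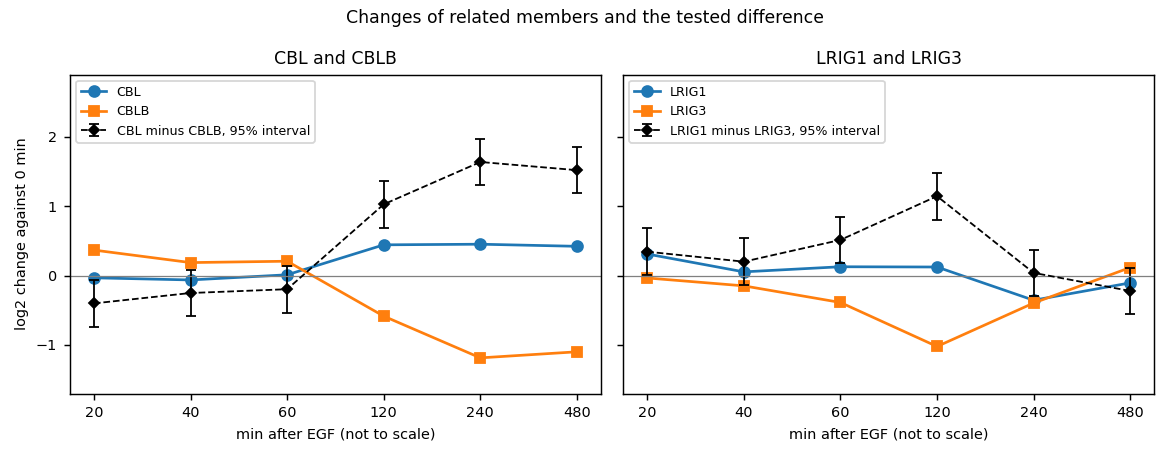
Lines give the log2 change against 0 min of CBL (circles) and CBLB (squares) at left and of LRIG1 and LRIG3 at right, at 20 to 480 min, and black diamonds the tested difference with its 95% interval. The difference between CBL and CBLB is -0.40 at 20 min and 1.64 at 240 min, and the LRIG lines differ by 1.15 at 120 min and meet again at 240 min.

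PTPRE, the receptor-type phosphatase, was higher from 60 min on and highest at 120 min. Its values were 6.46, 6.30 and 6.56 at 0 min, 6.90, 6.71 and 6.88 at 40 min and 7.02, 7.18 and 7.28 at 60 min. They were 7.37, 7.52 and 7.81 at 120 min, 7.17, 7.43 and 7.46 at 240 min and 7.27, 7.28 and 7.36 at 480 min. From 40 min on every array lay above those at 0 min. The change was 0.39 at 40 min, which did not pass (adjusted p = 0.106), and 0.72 at 60 min (adjusted p = 0.000329). It was 1.13 at 120 min (SE 0.12, 2.19-fold, adjusted p = 5.16e-07), 0.91 at 240 min and 0.87 at 480 min (adjusted p = 1.25e-05), all called in every refit. At 120 min it was 0.69 with no filter on dim probesets and 1.55 with the 75th percentile, called in both. No step between neighbouring times from 20 min on passed by itself, the largest being 0.40 from 60 to 120 min (adjusted p = 0.0639). Over all 10 members the steps called were 1 from 20 to 40 min (0.572% of all genes) and 3 from 60 to 120 min (3.49%). There were 5 from 120 to 240 min (1.54%) and 1 from 240 to 480 min (1.47%). Of these 10 step calls, 5 held in every setting and every refit without 1 array. From 40 to 60 min limma called 0, where 0.229% of all genes were called and 2 members (ERRFI1 and PTPRE) had an unadjusted p under 0.05.

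The array also carries probesets that the annotation leaves unnamed, and some lie by number between 2 probesets of 1 gene. No position was used for them here, so they are described and not tested. Of 4 such probesets within ERRFI1, 3 passed the filter. Their median went from 6.94, 7.25 and 6.89 at 0 min to 9.45, 9.49 and 8.90 at 20 min and then down to 8.27, 8.80 and 8.86 at 60 min and 7.45, 7.16 and 7.46 at 480 min. The change of that median was 2.25 at 20 min and 1.62 at 60 min, and each of the 3 was highest at 20 min. Of the 11 named probesets 8 were highest at 60 min and 2 at 120 min, and 1 was highest at 20 min like the unnamed ones.

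For LRIG3, 14 of 16 such probesets passed the filter. Their median read 6.49, 6.41 and 6.55 at 0 min, 6.72, 6.79 and 6.35 at 20 min and 4.93, 4.72 and 4.77 at 40 min. It then returned by steps, to 5.07, 5.42 and 5.27 at 60 min and 5.62, 5.72 and 6.09 at 120 min. The values at 40 min lay below the filter of 5.18, which applies to a probeset's mean over all arrays. At 40 min 13 of the 14 were lower, and the median of the probesets' own changes was -1.62, a time at which the gene value from the named probesets had changed by -0.15. At 120 min, the low point of 25 of the 27 named probesets, the median change of the unnamed ones was -0.70. The other 2 named probesets were lowest at 40 min, 1 of them at -2.21. For CBLB, 21 of 50 passed. All 21 were lower at 60 min, with a median change of -0.44, when the gene value had changed by 0.21, and at 240 min the changes were -0.62 and -1.19. Over all 135548 kept unnamed probesets that lie between probesets of 1 gene, the median change was between -0.07 and -0.02 at each time. Of them 6.29% were higher by more than 0.5 at 20 min, and 6.44% at 40 min and 8.77% at 60 min were lower by more than 0.5. The counts of probesets higher or lower in the genes described here take any change, without that cutoff. The share of all these unnamed probesets with any decrease was not computed. For PTPRE (31 kept), LRIG1 (26), CBL (11), SOCS2 (5) and SOCS5 (5) the median change of such probesets stayed between -0.25 and 0.27, and SOCS3 and SOCS4 had 1 each. For PTPRE that median covers unlike probesets: at 60 min 18 were higher and 13 lower, from -0.68 to 1.35. Probesets 3270322, 3270323, 3270324, 3270327 and 3270332, numbered within its named run that rose and picked for their values, were each highest at 60 min (0.92 to 1.35). Others numbered within that run went otherwise. Probesets 3270330, 3270352 and 3270354 were highest at 120 min (0.49, 1.05 and 0.26). At 60 min 3270328, 3270334 and 3270349 changed by 0.09, -0.10 and -0.05. The PTPRE gene value was highest at 120 min. All 11 of CBL were lower at 40 min, from -0.52 to -0.03. Their median change was -0.25, beside -0.04 over all kept unnamed probesets between probesets of 1 gene.

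**Figure D5:**
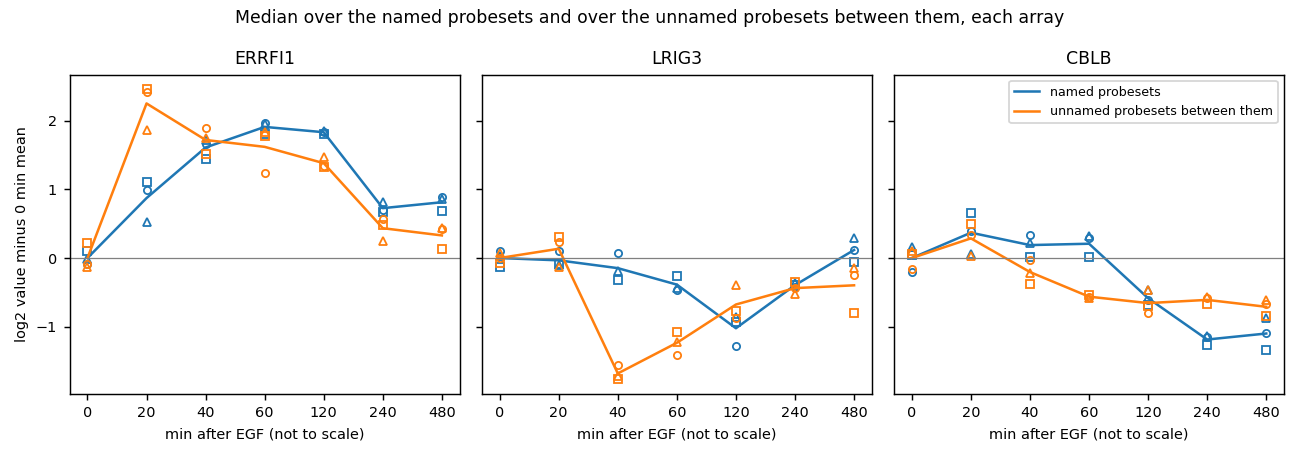
Each panel plots, for ERRFI1, LRIG3 and CBLB, the array's median over probesets minus its mean at 0 min (log2) against minutes after EGF, in blue for the named probesets and in orange for the unnamed probesets numbered between them; marks are replicates A (circle), B (square) and C (triangle) and lines are means. The orange line of ERRFI1 is highest at 20 min (2.25) and that of LRIG3 lowest at 40 min (-1.68), each before the blue line's extreme at 60 and 120 min.

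The nearest relatives outside the 10 also rose in part. Beside this list and those below, the shares of all genes called higher were 0.897%, 1.82%, 4.82%, 11.2%, 13.5% and 15.5% in order of time. The shares called lower were 0.0843%, 0.415%, 0.975%, 3.21%, 6.21% and 7.11%. Of LRIG2, SOCS1, SOCS6, SOCS7, CISH, CBLC and PTPRA, 4 were higher at 120 min and 0 lower in limma (0 also at an unadjusted p under 0.05), and 2 were higher at 240 and at 480 min, with a median change of 0.48 at 120 min. SOCS6 rose most (1.05 at 120 min, SE 0.14, adjusted p = 1.05e-05). CISH, a STAT5 target of the same family, rose by 0.64 at 60 min (adjusted p = 0.00439), and LRIG2 by 0.55 at 120 min (adjusted p = 0.0328).

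EGFR itself, named outside the naming rule after its value was seen, did not pass at any time, with changes from -0.02 to 0.28. Of 11 tested ERBB receptors and ligands (AREG was not tested), 1, 2, 4, 4, 4 and 4 were higher in order of time and 0, 0, 0, 1, 1 and 2 lower. The ligands HBEGF (3.83 at 60 min), EREG (2.51 at 120 min) and TGFA (2.28 at 120 min) had the largest changes. Among 20 genes that work with CBL or move receptors through endosomes, 0, 0, 2, 6, 8 and 9 were called higher by limma (6, 2, 7, 10, 9 and 15 at an unadjusted p under 0.05) and 0 lower at any time by either measure. They were led by UBASH3B (1.66 at 480 min, adjusted p = 4.10e-10), a phosphatase that binds CBL, then RAB7A (0.89 at 240 min) and RAB5A (0.86 at 60 min), the small GTPases of late and early endosomes. Their median change was 0.42 at 480 min beside 0.05 over all genes. Of 10 other phosphatases that act on receptors, 2 were higher and 3 lower at 480 min. PTPN12 changed by 1.64 at 120 min (adjusted p = 9.74e-06), PTPN6 by -0.61 at 240 min and PTPRS by -0.48 at 480 min.

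Feedback genes below the receptor were higher from 20 min on: of 15 tested (RASA1 was not), 6, 8, 10, 10, 9 and 10 were higher in order of time, and limma called 0 lower, nor was any lower at an unadjusted p under 0.05. DUSP1 rose by 3.85 at 40 min, DUSP6 by 3.64 and SPRY4 by 3.33 at 120 min. DUSP1 and DUSP6 are MAP kinase phosphatases and SPRY4 is a Sprouty inhibitor of the RAS pathway. In the gp130, JAK and STAT list, the pathway that SOCS3 restrains, 2, 4, 5, 7, 6 and 3 of 13 tested genes were higher and limma called 0 lower, with 2 (TYK2 and STAT5B) lower at an unadjusted p under 0.05, at 60 min. The cytokine LIF rose by 3.08 and the kinase PIM1 by 1.87 at 60 min, the time at which SOCS3 was highest, and the receptor OSMR by 1.33 at 240 min.

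For the 4 members with a change of at least 1, the genes of most similar time course were sought by Pearson's r over the 7 time means among 672 genes that passed the F-test and changed by at least 1. The points share arrays, the r values are descriptions and no test was made. ERRFI1 was closest to PRDM1 (r = 0.977), HAS3 (0.966) and FOXA1 (0.964). PTPRE was closest to NRIP1 (0.996), SPRY4 (0.994) and UPP1 (0.987), and CBLB to ATOSA (0.988), PELI2 (0.988) and PLD1 (0.987). LRIG3, with its dip and return, had no gene so close, the nearest being NFIL3 (0.766), ID3 (0.677) and RIPK4 (0.614).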

How the data were processed

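The deposited table holds PLIER signal intensity for 1384231 probesets on 21 arrays, on a linear scale; PLIER and Affymetrix Expression Console 1.1 are named in the submitters' processing notes, which give no settings, background treatment or annotation build (not given in the sources used here). Deposited intensities entered without further normalisation, as log2(intensity + 16). Platform annotation named 354600 probesets with 1 gene symbol, 14898 with several and 1014733 with none; old symbols were updated through RefSeq gene names. Probesets whose mean over all arrays reached the median of all probesets (20.2 units) were kept, and genes with at least 3 kept probesets were tested (16614).

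One limma fit (version 3.58.1, R 4.3.3) over all 21 arrays had time as a factor, with 14 residual degrees of freedom, no replicate block and Benjamini-Hochberg adjustment over all genes within a contrast at 0.05. The median SD between replicates was 0.169 log2 units. The fit was tested on simulated data. Probesets were fitted in the same way, and differences between relatives in a fit over 8 pairs adjusted over 48 tests. Whether the letters A to C pair arrays across times is not stated. Deviations of arrays with the same letter at different times had a median correlation of -0.01, from -0.54 to 0.56, and 19 of 63 pairs exceeded 0.1. Such a median cannot exclude that some times were paired, so the replicate block was run as an alternative. The number of arrays limits the precision, and the p-values measure the spread between cultures as labelled.

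All 10 members were described; from the other gene lists, up to 3 called genes with the largest change were named. The members and lists were chosen with earlier results of these data known. Alternatives were quantile normalisation, pseudocounts of 1 and 64, no filter or the 75th percentile, the mean over probesets, the replicate block, the array index as a covariate and leaving out each array.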

Additional observations from a re-analysis of the deposited data

How the results depend on the processing

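Of the 27 calls of a member against 0 min, 19 held in every setting and every refit without 1 array, and none changed direction; of 10 calls between neighbouring times, 5 held likewise. Quantile normalisation changed no call. The count of members called from 240 to 480 min, 1 as reported, was 0 with a pseudocount of 1, without a filter, with the filter at the 75th percentile and with the replicate block. The block also ended the CBLB call from 120 to 240 min and changed no call against 0 min. From 60 to 120 min, 3 as reported became 5 with a pseudocount of 64, 5 with the 75th percentile and 6 with the array index as a covariate. At 40 min, 1 higher became 3 without a filter (SOCS3 and SOCS4 added), 2 with the mean over probesets and 2 with the index. At 60 min, 4 higher became 2 with the 75th percentile, and 0 lower became 1 (LRIG3) with the mean over probesets and 1 with the index; at 120 min, 5 higher became 3 with the index. SOCS5 passed the F-test with the 75th percentile (adjusted p = 0.0305) and without array C at 20 min (0.0484).

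Leaving out 1 array at a time moved the members called higher between 1 and 4 at 20 min, 1 and 2 at 40 min and 3 and 5 at 120 min, those called lower between 0 and 1 at 60 min and 1 and 3 at 240 min, and those called between neighbouring times between 3 and 6 from 60 to 120 min, 1 and 5 from 120 to 240 min (1 without array A at 120 min) and 0 and 1 from 240 to 480 min. The 20 min count was 4 without array C at 20 min. Refits without 1 array leave 2 arrays at that time, which borrow the spread of the other times. The probeset F-test was recomputed without a filter and with the replicate block and kept within 1.5 times its count. Dim genes such as SOCS3 and SOCS2 sit near the filter, where the scale understates changes; unnamed probesets have no position here, and no sequence, splice form or protein was measured.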
